A study of Mus musculus with 16 samples.

Results

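Open chromatin was compared between pancreatic islets of the 129 strain (129S1/SvImJ) and of the B6 strain (C57BL/6J), in 2 samples of each. The peak lists of the 4 samples merged into 160856 regions on chromosomes 1 to 19, against 358621 regions merged in the same way from the lists of all 16 samples of the series. Of the 160856 regions, 60639 (37.7%) held a peak in every one of the 4 samples, and their signal was compared between the strains. A further 3199 regions were called in both 129 samples and neither B6 sample, and 9386 in both B6 samples and neither 129 sample.

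The series profiled islets of 8 inbred founder strains by ATAC-seq, in which a transposase inserts sequencing adapters into open chromatin so that accessible sites collect reads. Each strain gave 1 female and 1 male sample, each made from a selection of 50 islets of average size. The labels give no treatment, age or batch, and they do not say that samples came from separate animals. The 2 replicates of a strain therefore differ in sex, and the p-values below measure only the spread between these samples. Reads of both strains were aligned to the mm10 reference, which is the sequence of C57BL/6J.

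Islets are clusters of endocrine cells in the pancreas, in which beta cells secrete insulin and alpha cells secrete glucagon. Accessible regions lie mainly at promoters, where transcription starts, and at distal enhancers, where transcription factors bind short sequence motifs. 129 and B6 are classical laboratory strains, and they differ by many sequence variants and by the copy number of some gene families. A whole islet holds several cell types, so a change in the number of cells of a type and a change in accessibility per cell cannot be told apart in such samples.

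The reference sequence is shown for regions named first in each class of result, as 300 bases around the summit, because the strain differences described below are differences in signal over these letters. All are from the + strand of GRCm38 (mm10). Capitals mark the motif letters found among 10 short motifs searched on both strands: TGANTCA of AP-1, the dimer of FOS and JUN proteins, CATCTG of the NEUROD1 E-box, TAATTA of homeodomain factors such as PDX1, AGATAA of GATA factors, TGTTTAC of FOXA, TGCTGAC of a MAF site, GTTGCCA of an RFX site, GTTAAT of an HNF1 site, CCGGAAG of ETS factors and CCACNAG of CTCF. The first pair had a higher signal in 129, in an exon of Adgrv1 and at the promoter of Gm3667.
Adgrv1, chr13:81505815-81506114: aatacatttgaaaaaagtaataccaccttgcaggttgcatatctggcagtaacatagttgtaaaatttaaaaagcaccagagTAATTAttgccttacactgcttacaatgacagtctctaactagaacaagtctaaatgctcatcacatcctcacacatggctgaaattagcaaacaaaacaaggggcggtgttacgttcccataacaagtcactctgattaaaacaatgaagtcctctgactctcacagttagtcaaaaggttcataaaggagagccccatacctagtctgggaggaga
Gm3667, chr14:6888794-6889093: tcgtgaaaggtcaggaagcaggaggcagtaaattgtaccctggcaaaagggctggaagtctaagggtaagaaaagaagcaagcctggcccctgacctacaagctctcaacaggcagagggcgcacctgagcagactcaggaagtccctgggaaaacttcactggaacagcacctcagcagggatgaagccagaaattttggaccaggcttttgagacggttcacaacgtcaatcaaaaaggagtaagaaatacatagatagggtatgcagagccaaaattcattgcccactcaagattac
The second pair had a higher signal in B6, in the region nearest to Gm9230 and in an exon of Gm26766.
near Gm9230, chr7:39765148-39765447: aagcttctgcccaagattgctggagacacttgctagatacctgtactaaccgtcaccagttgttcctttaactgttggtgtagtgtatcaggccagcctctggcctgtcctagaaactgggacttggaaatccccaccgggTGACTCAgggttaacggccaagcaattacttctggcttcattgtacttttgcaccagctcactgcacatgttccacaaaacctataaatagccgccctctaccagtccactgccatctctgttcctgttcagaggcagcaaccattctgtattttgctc
Gm26766, chr15:37042717-37043016: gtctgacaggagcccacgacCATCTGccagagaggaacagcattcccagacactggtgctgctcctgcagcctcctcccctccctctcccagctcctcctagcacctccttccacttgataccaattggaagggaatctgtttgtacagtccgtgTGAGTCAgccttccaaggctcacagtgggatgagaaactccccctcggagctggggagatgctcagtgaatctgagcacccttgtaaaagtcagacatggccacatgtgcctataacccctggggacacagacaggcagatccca
The third pair was called in 129 only, at the promoter of Gm3115 and in an intron of Akap9.
Gm3115, chr14:4085137-4085436: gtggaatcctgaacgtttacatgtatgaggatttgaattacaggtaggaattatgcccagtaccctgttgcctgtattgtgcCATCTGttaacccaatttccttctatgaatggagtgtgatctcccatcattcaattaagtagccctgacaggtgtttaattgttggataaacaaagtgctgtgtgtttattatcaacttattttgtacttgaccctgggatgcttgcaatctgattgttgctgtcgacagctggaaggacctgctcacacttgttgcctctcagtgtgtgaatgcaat
Akap9, chr5:4053711-4054010: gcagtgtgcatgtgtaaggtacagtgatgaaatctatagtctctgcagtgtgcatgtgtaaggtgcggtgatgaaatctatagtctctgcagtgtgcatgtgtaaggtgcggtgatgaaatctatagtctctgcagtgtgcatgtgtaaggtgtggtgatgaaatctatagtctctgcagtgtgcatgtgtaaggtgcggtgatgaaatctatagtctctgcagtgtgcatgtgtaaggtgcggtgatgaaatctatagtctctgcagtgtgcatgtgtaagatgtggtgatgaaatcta
The last region was called in B6 only, in an intron of Gm12873.
Gm12873, chr4:122789731-122790030: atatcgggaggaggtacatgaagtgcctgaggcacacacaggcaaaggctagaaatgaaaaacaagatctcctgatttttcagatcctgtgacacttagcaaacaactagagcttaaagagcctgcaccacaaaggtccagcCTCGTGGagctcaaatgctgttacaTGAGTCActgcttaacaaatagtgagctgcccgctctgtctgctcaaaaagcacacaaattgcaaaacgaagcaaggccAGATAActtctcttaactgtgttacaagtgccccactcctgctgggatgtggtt
AP-1 letters were found in all 3 windows from the B6 side and in 0 of the 4 from the 129 side. The Akap9 window was a tandem repeat with a period of 44 bases, at which 97.7% of the letters recurred, and it held no match. Whether 129 carries the same number of repeat units was not analysed here. A match of letters is a description and not a binding site.

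Before the strains are compared, the differences between the 4 libraries need to be stated. The lists held 90476 autosomal peaks in the 129 female, 94216 in the 129 male, 117672 in the B6 female and 108920 in the B6 male, within the range of 77887 to 167051 over the 16 lists. The lists carry no read totals, so the depth of each sample is unknown from these files, and depth values given elsewhere by the study were not used here. Over the 60639 shared regions, the median summit signal was 41, 48, 59 and 59 in the same order. The signal was therefore centred on each sample's median, and a scaled signal is given below as the summit signal divided by that median. The correlation of the centred log2 signal across the 60639 regions was 0.901 between the 129 samples and 0.902 between the B6 samples, but 0.924 between the 129 male and the B6 female and 0.748 between the 129 female and the B6 male. The lead of promoters over other regions fell along the same order. The median centred log2 signal of promoters exceeded that of other regions by 1.57 in the 129 female, 1.23 in the 129 male, 1.12 in the B6 female and 0.80 in the B6 male. The GC-richest quintile of regions exceeded the GC-poorest quintile by 1.33, 0.62, 0.63 and 0.00 respectively. The promoter lead was thus larger in both 129 samples than in both B6 samples, but it also differed between the samples of each strain. The GC difference was alike in the 129 male and the B6 female. The part of these properties in the strain differences was not tested except where values within GC bins are given.

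The islet identity of all 4 samples was checked on promoter peaks. Of the 11 islet markers on autosomes, 9 had a promoter peak in every sample, among them Ins1 and Ins2, which encode insulin, and Gcg, which encodes glucagon. No peak was called within 1 kb of a start of Sst or Ppy in any of the 4 samples. Of the marker lists of other cells, acinar promoters were called in all 4 samples for 3 of 16 genes, with a summed scaled signal of 2.71 to 4.19 per sample. Duct promoters were called in all 4 for 8 of 12 genes, with sums of 11.1 to 15.8 in 129 and the B6 female and 8.08 in the B6 male. Endothelial and stromal promoters were called in all 4 for 5 of 21 genes, with sums of 3.96 to 5.37, and leukocyte promoters for 3 of 20 genes, with sums of 1.77 to 2.78.

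The first question was which shared regions differed in signal between the strains. With limma at a Benjamini-Hochberg adjusted p under 0.05, 74 regions (0.122% of 60639) were higher in 129 and 44 (0.0726%) were higher in B6, 118 (0.195%) in all. At an unadjusted p under 0.05 there were 8379 regions. The called differences ranged from 3.73-fold to 16.4-fold in the 129 direction and from 3.71-fold to 11.7-fold in the B6 direction. In all 118 regions both samples of one strain lay above both of the other, and the difference had the same sign in females and males. Without either 129 sample, no region passed the adjusted threshold, with 1828 regions at an unadjusted p under 0.05 without the female and 6990 without the male. Without the B6 female, 960 and 1494 regions passed, and without the B6 male, 152 and 55. In each of these fits without 1 sample, the spread came from 1 strain only. The moderation by limma then added 2.65 degrees of freedom without a 129 sample and 128 without a B6 sample, against 12.8 with all samples. Without centring, the split became 179 higher in 129 and 3121 higher in B6, since the median difference of all regions moved from 0.08 to -0.325 on the log2 scale. Medians of classes and lists are therefore given below beside that of all regions.

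A count by size, added after the data were seen, took regions in which both samples of one strain lay above both of the other and the means were at least 2-fold apart. It gave 2108 regions (3.48%) higher in 129 and 2578 (4.25%) higher in B6, 4686 (7.73%) in all, with no test. Across the 60639 regions, the strain difference in the females and that in the males had a correlation of 0.492. These 2 values share no sample. In both sexes, however, the 129 sample had a larger promoter lead and GC difference than the B6 sample, as given above. The part of these properties in the correlation was not tested.

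**Figure D1:**
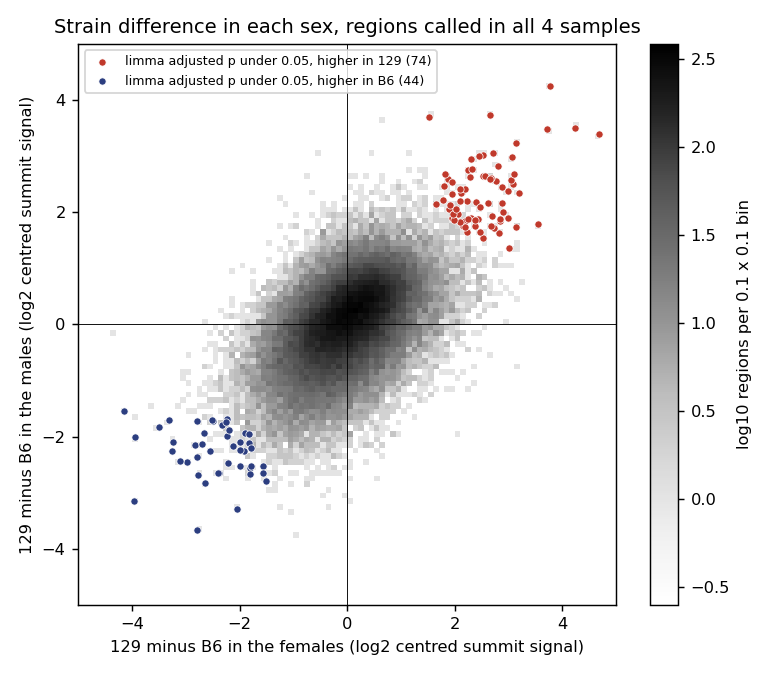
Strain difference in the females (x axis) against that in the males (y axis), both as 129 minus B6 in log2 centred summit signal. Grey squares give the number of regions per bin on a log10 scale, and coloured points are the 118 regions past the adjusted threshold. The 74 red points lie above 0 on both axes and the 44 blue points below 0 on both.

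The 8 regions with the smallest p in the 129 direction included coding genes, predicted genes and intergenic sites. The region chr13:81505400-81506445 overlaps an exon of Adgrv1, which encodes a large adhesion G protein-coupled receptor of hair cells and photoreceptors. Its scaled signal was 3.22 in the 129 female and 3.56 in the 129 male, against 0.22 in the B6 female and 0.169 in the B6 male. The 129 samples stood well above the B6 samples, by 4.01 ± 0.36 on the log2 scale (SE, n = 2 per strain, adjusted p = 0.000771 with limma). A peak was called there in all 16 samples of the series. The mean centred log2 signal was 1.23 in 129, 2.14 in AJ, 1.93 in NOD and 1.76 in WSB, against -2.77 in B6 and -1.82 in CAST, so that B6 was the lowest of the 8 strains at this exon.

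The strongest signal among the named regions was at the promoter of Gm3667, chr14:6887330-6893933, a predicted protein-coding gene. Scaled values were 27.2 and 26.6 in the 129 female and male, against 1.42 and 2.32 in B6. The difference was 3.87 ± 0.37 on the log2 scale (adjusted p = 0.000782). PWK reached a mean centred log2 signal of 4.52, while AJ had 0.45 and WSB 0.61, near the B6 level of 0.36. A second predicted gene on the same arm, Gm8108, had a promoter region at chr14:4107521-4111966 with values of 18.3 and 23.8 in 129 and 2.17 and 2.98 in B6. It differed by 3.02 ± 0.37 (adjusted p = 0.00607). Both genes belong to a family of near-identical copies, so that reads from a copy elsewhere in the family cannot be told apart from reads of these promoters.

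The remaining named regions higher in 129 lay outside promoters. In an intron of Csmd1, which encodes a large membrane protein with complement-control domains, chr8:15913907-15915298 had scaled values of 4.17 and 4.77 in 129 and 0.458 and 0.492 in B6 (difference 3.18 ± 0.35, adjusted p = 0.00267). In an intron of Osbpl1a on chromosome 18, which encodes an oxysterol-binding protein relative, the values were 12.3 and 17.8 in 129 and 1.86 and 2.12 in B6 (difference 2.88 ± 0.37). At both introns each 129 value lay far above each B6 value. Intergenic regions nearest to Gm36640 (chr6:135279026-135280347) and Gm42698 (chr5:44369940-44370436) differed by 4.04 ± 0.39 and 3.60 ± 0.36, and the one nearest to Gm48842 (chr9:85635547-85636192) by 2.81 ± 0.36.

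The named regions higher in B6 were mostly distal. The region chr7:39765045-39765629, whose nearest start is that of Gm9230, had scaled values of 0.22 in the 129 female and 0.542 in the 129 male, against 3.76 in the B6 female and 4.93 in the B6 male. The difference was -3.55 ± 0.42 (adjusted p = 0.00504), and peaks were called there in 11 of the 16 samples. An exon of the noncoding gene Gm26766, chr15:37042703-37043399, had 0.439 and 0.271 in 129 and 1.88 and 2.81 in B6 (difference -2.66 ± 0.39, adjusted p = 0.0152). Here 129 was the strain that stood apart, with a mean centred log2 signal of -1.98 while the other 7 strains lay between 0.27 and 1.02.

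Adam17 encodes the protease that sheds tumour necrosis factor from the cell surface. The region in its intron, chr12:21335801-21336454, had 0.341 and 0.833 in 129 and 5.59 and 3.39 in B6 (difference -2.98 ± 0.44, adjusted p = 0.0152). In an intron of Clec2g, a C-type lectin-like receptor gene, chr6:128941963-128943955 had 0.561 and 1.19 in 129 and 4.59 and 6.56 in B6 (difference -2.72 ± 0.41, adjusted p = 0.017). The region 3023 bases from the start of Tmem125 (chr4:118547067-118548735) had 1.05 and 2.00 in 129 and 10.1 and 8.61 in B6. In each of the 3, the groups did not overlap and B6 was higher in both sexes. The other named regions, nearest to Gm36406, Gm45211 and Rps18-ps1, differed by -2.77, -3.23 and -2.76, and the first of them was called in only 7 of the 16 samples.

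**Figure D2:**
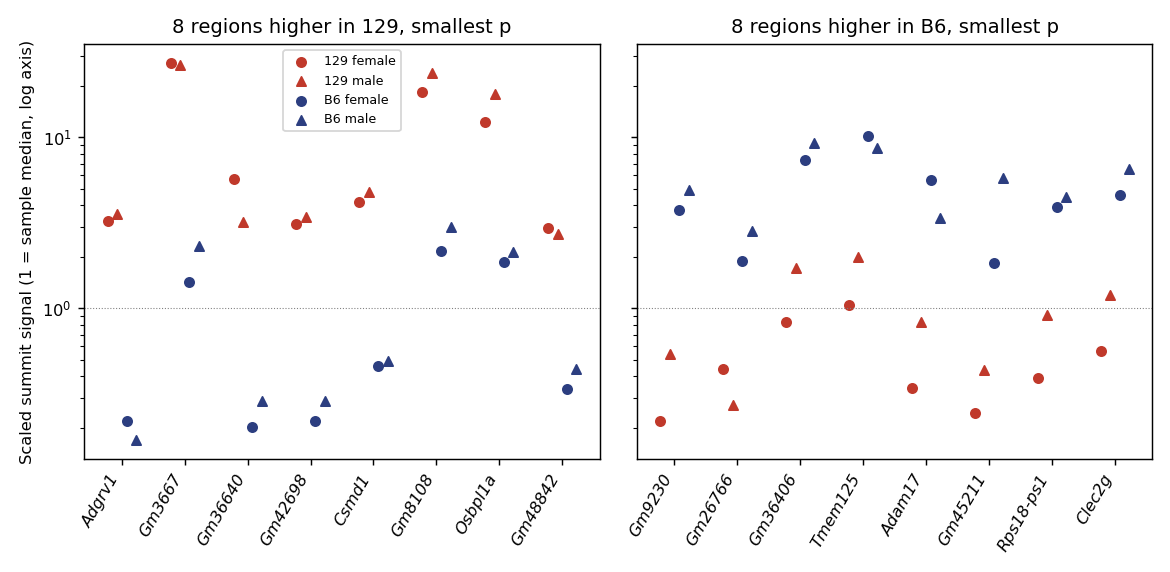
Scaled summit signal (log axis, 1 is the sample's median over the 60639 regions) of the 8 regions with the smallest p in each direction, named by the gene that holds them or has the nearest start. Red marks are 129 and blue marks are B6, circles are females and triangles are males. At every region the red and blue marks do not overlap, and values run from 0.169 to 27.2.

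Promoters among the called regions were looked at after their values were seen. Of the 74 regions higher in 129, 27 (36.5%) lay within 1 kb of a transcription start, and of the 44 higher in B6, 5 (11.4%), against 27.2% of all 60639. Several of the 27 belong to the Gm genes on chromosome 14. Among the others, the promoter of Cd59a, an inhibitor of the complement membrane attack complex, had scaled values of 4.73 and 4.1 in 129 and 0.983 and 0.593 in B6, a 5.64-fold difference (adjusted p = 0.017). The promoter of Fbp1, the gluconeogenic enzyme fructose-1,6-bisphosphatase, had 1.8 and 1.48 in 129 and 0.373 and 0.458 in B6, 3.83-fold apart (adjusted p = 0.0445). Promoters of Ube2q2, a ubiquitin-conjugating enzyme gene, Grik3, a kainate receptor subunit gene, and Cdk17, a cyclin-dependent kinase gene, were 6.26-fold, 4.45-fold and 4.18-fold higher in 129.

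The 5 promoters higher in B6 were those of Slc39a10, Ncoa7, Senp7, Dennd1a and Gm13274. Slc39a10 encodes a zinc importer, and its promoter region chr1:46885144-46888803 had 0.805 and 1.12 in 129 and 3.25 and 5.36 in B6, a 4.32-fold difference (adjusted p = 0.0425). Ncoa7, a gene of the oxidation resistance family, had 0.39 and 0.25 in 129 and 1.2 and 1.54 in B6 (4.14-fold). Senp7, a SUMO protease gene, and Dennd1a, which encodes an activator of Rab GTPases, were 4.12-fold and 4.54-fold higher in B6. All 4 coding promoters were called in at least 15 of the 16 samples.

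Promoters as a class sat toward 129. The median difference of the 16516 promoter regions was 0.33 on the log2 scale, against 0.04 in exons, -0.04 in introns and -0.03 in intergenic regions, and 0.08 over all. By the 2-fold count, promoters made up 42.3% of the regions higher in 129 (891 of 2108) and 7.1% of those higher in B6 (183 of 2578). The lead of promoters over other regions also differed between the samples of 1 strain, as given above, so this shift cannot be told apart from the difference between libraries.

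The next question was which other strains share the 129 or the B6 level. Of the 74 regions higher in 129, 41 were called in all 16 samples, and the mean of the other 6 strains was nearer to 129 in 25 of them and nearer to B6 in 16. Of the 44 regions higher in B6, 30 were called in all 16 samples, and the other strains were nearer to B6 in 23 and nearer to 129 in 7. PWK was nearer to 129 in 36 of the 41 regions and 13 of the 30, and WSB in 19 of the 41 and 3 of the 30. AJ, CAST, NOD and NZO were nearer to 129 in 15 to 26 of the 41 and 4 to 10 of the 30. These are values that the choice of the regions did not use, described here with no test.

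Regions with a peak in one strain only were examined next. Called in both samples of 129 and neither of B6 were 3199 regions (1.99% of 160856), and called in both of B6 and neither of 129 were 9386 (5.84%), 12585 (7.82%) together. For comparison, 2905 regions (1.81%) were called in both females and neither male, and 1477 (0.918%) in both males and neither female. Regions called in a single sample numbered from 6498 in the 129 male to 22439 in the B6 female. The B6 lists were also longer, and when the strongest 90476 peaks were taken from each list, 4229 regions were called in 129 only and 5117 in B6 only. A region without a call is one in which no peak passed the threshold, not one with no accessibility.

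**Figure D3:**
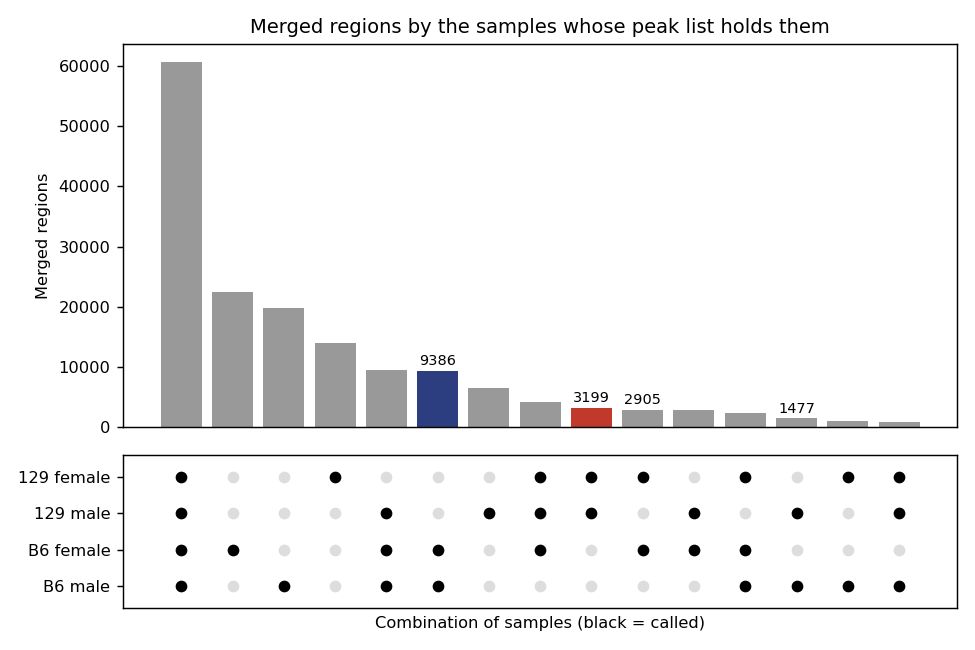
Number of merged regions (y axis) for each combination of the 4 peak lists, with black dots below marking the samples that called the region. The red bar is the 129-only pattern (3199) and the blue bar the B6-only pattern (9386); the patterns of both females (2905) and both males (1477) are also labelled.

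These regions were weaker than the shared ones. The median of the highest scaled signal was 0.561 in the 129-only regions and 0.407 in the B6-only regions, against 1.39 in the regions called in all 4. Promoters were 15.4% of the 129-only and 6.84% of the B6-only regions, against 16.1% of all 160856. The sets also differed in repeat content. At least 50% of the bases were soft-masked repeats in 698 of the 129-only regions (21.8%) and 681 of the B6-only regions (7.26%), against 8.85% of all merged regions.

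Named by the highest mean scaled signal, the 129-only regions were led by the promoter of Gm3115 (chr14:4083912-4091585), with 4.68 in the female and 4.62 in the male. Both samples of CAST, NOD, NZO and PWK also had a peak there. The intron of Akap9, a scaffold of the centrosome and Golgi that anchors protein kinase A, had 5.83 and 2.94 at chr5:4052285-4054455, with both samples of AJ, CAST and WSB also called. Rprl3, an RNA gene of the ribonuclease P family, had 4.32 and 4.21 at its promoter, chr8:3803128-3803350. All 6 other strains had both samples called at Rprl3, so that B6 was the strain without a peak. The promoter of Tescl had 3.51 and 2.83, and the regions nearest to Gm22908, Gm2324, Gm36079 and Ust, a sulfotransferase gene, had means of 2.59 to 3.39.

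Among the B6-only regions with the highest mean signal, the intron of Gm12873, a pseudogene, had scaled signals of 1.37 in the B6 female and 3.61 in the B6 male (chr4:122789436-122790240). An intron of Slc8a1, which encodes a sodium-calcium exchanger, had 1.37 and 2.71 (chr17:81429198-81429660). At both introns the B6 male was the higher sample. The promoter of Ppp5c, a serine/threonine phosphatase gene, had 2.51 and 1.42 (chr7:17007424-17007637), and both samples of all 6 other strains were called, so that 129 was the strain without a peak. In contrast, the promoter region shared by Brinp3 and A230059L01Rik (chr1:146805436-146806705), with 1.31 and 2.32, was called in no sample of another strain. Another 3, nearest to the pseudogene Mup-ps29, to Gm24382 and to Gm48140, had means of 1.83 to 1.93, and Mup-ps29 had no other strain with both samples called.

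Across whole sets, the other strains shared many of these peaks. Of the 9386 B6-only regions, both samples were called in 64.1% for WSB, 46.4% for CAST, 32.6% for NZO, 31.4% for PWK, 25.2% for NOD and 15.1% for AJ. Of the 3199 129-only regions, the shares were 50% for CAST, 45.7% for WSB, 37.1% for PWK, 30.9% for NZO, 30.4% for NOD and 20.9% for AJ. Over the regions called in all 4 samples the range was 83.3% in AJ to 97.5% in WSB. AJ thus had the lowest share in all 3 sets, and WSB the highest in the B6-only and shared sets. No other sample was called in 187 (5.85%) of the 129-only and 381 (4.06%) of the B6-only regions.

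Part of the 129-only regions lay in a few gene clusters. Among 2332 windows of 1 Mb with at least 20 merged regions, the median share of 129-only regions was 0.8%, but 32 windows had over 10% and held 1121 (35%) of all 129-only regions. Runs of adjacent windows with over 20% were picked after their values were seen, and of 5 such runs, the 4 with the most 129-only regions are described here. The largest cluster lay on chromosome 14 between 3 and 8 Mb, a stretch of predicted Gm genes in near-identical copies. It had 463 129-only regions among 1276 (36.3%), 14.5% of all 129-only regions, against 9 B6-only regions. Of its 88 regions called in all 4 samples, 10 were higher in 129 by limma, and by the 2-fold count 32 were higher in 129 and 1 in B6. Repeats made up at least 50% of the bases in 58.3% of the 129-only regions there.

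The strains that shared the chromosome 14 peaks differed from those at the other clusters. Both PWK samples were called in 61.1% of the 463 regions, CAST in 37.6%, NOD in 20.5%, NZO in 13.8%, WSB in 1.3% and AJ in 0%. At the Vmn2r cluster of vomeronasal receptor genes on chromosome 7 (7 to 11 Mb), 123 of 426 regions (28.9%) were 129-only. There NZO shared 73.2%, AJ 67.5%, NOD 65.9% and CAST 33.3%, but WSB 5.69% and PWK 0.813%. At the Ighv cluster of immunoglobulin variable segments on chromosome 12 (115 to 116 Mb), 83 of 232 (35.8%) were 129-only. AJ shared 78.3%, PWK 63.9%, WSB 42.2%, NZO 14.5%, CAST 2.41% and NOD 0%. At a zinc finger gene cluster on chromosome 13 (65 to 67 Mb), 74 of 307 (24.1%) were 129-only. AJ shared 98.6%, NOD and WSB 82.4% each, PWK 78.4%, NZO 62.2% and CAST 47.3%. The sharing strains thus differed between the clusters on chromosomes 14, 7 and 12, while at chromosome 13 every other strain shared many of the peaks. The handling of reads that align to several copies was not stated in the sources used here.

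**Figure D4:**
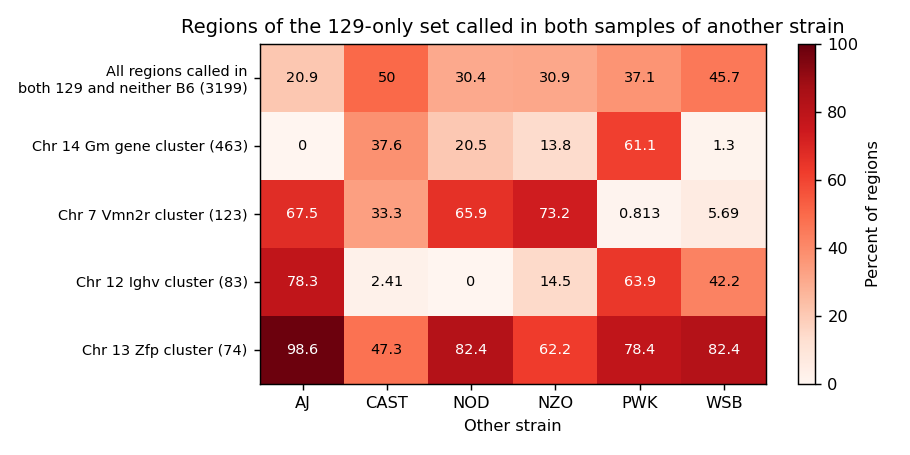
Percent of 129-only regions that were also called in both samples of each other strain, for all 3199 regions and for 4 gene clusters (numbers of regions in parentheses). AJ ranges from 0% at the chromosome 14 cluster to 98.6% at the chromosome 13 cluster, and PWK from 0.813% at the chromosome 7 cluster to 78.4% at the chromosome 13 cluster.

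The limma calls among shared regions were spread over 103 windows of 1 Mb. Only 11 windows held 2 or more, 26 calls together. Of 1436 windows with at least 20 tested regions, 1348 had no call. The 5 with the highest share of calls were chromosome 14 at 7 to 8 Mb (3 of 38, 7.89%), chromosome 6 at 18 to 19 Mb (2 of 26, 7.69%, with Cttnbp2 and Cftr), chromosome 14 at 51 to 52 Mb (2 of 33, 6.06%), chromosome 7 at 39 to 40 Mb and chromosome 9 at 85 to 86 Mb (1 of 20 each, 5%). By the 2-fold count, chromosome 8 at 20 to 21 Mb had 87 of 118 regions (73.7%), 86 of them higher in 129. Its median centred log2 signal was -0.18 in 129, 0.07 in AJ and 0.25 in PWK, against -1.38 in B6 and -2.48 in WSB. On chromosome 5 at 15 to 16 Mb, around the Speer genes, 34 of 62 regions (54.8%) were higher in 129 by the same count. On chromosome 17 at 30 to 31 Mb, a window with Btbd9, Glo1 and Glp1r, it was 9 of 21 (42.9%).

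AP-1 letters were more frequent on the B6 side. TGANTCA lay within 100 bases of the summit in 21 of the 44 regions higher in B6 (47.7%) and in 4 of the 74 higher in 129 (5.41%), against 12.9% of all regions tested. By the 2-fold count, the shares were 42% (1083 of 2578) in the B6 direction and 5.36% (113 of 2108) in the 129 direction. Among regions called in one strain only, they were 31.5% (2954 of 9386) for B6 and 6.13% (196 of 3199) for 129, against 15% of all merged regions. Without the B6 male, the share among the 55 regions then higher in B6 was 25.5%, and without the B6 female it was 58.8% of 1494. Within GC bins it was 47.1% of 17 regions.

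The contrast held outside promoters. There, 12.7% of the merged regions with the letters were B6-only and 0.754% were 129-only, while of those without the letters 5.28% were B6-only and 2.25% were 129-only. The level, however, differed between the samples of B6. The median centred log2 signal of tested non-promoter regions with the letters, minus that without, was 0.57 in the B6 male and 0.06 in the B6 female, and it was -0.13 in the 129 female and -0.14 in the 129 male. Within quintiles of GC content it ranged from 0.49 to 0.60 in the B6 male, 0.03 to 0.09 in the B6 female, -0.16 to -0.09 in the 129 female and -0.18 to -0.11 in the 129 male. Both 129 samples lay below both B6 samples in every quintile, but the distance between the B6 samples was larger than that between the B6 female and the 129 samples.

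Over 28119 non-promoter regions called in all 16 samples, the same difference was -0.20 and -0.21 in the 129 female and male and 0.00 and 0.51 in the B6 female and male. It was 0.61 and 0.66 in WSB, 0.33 and 0.46 in NZO, 0.21 and 0.25 in CAST and -0.04 and 0.06 in NOD. Female and male lay apart in PWK, with 0.58 and 0.15, and in AJ, with 0.35 and -0.16. The 2 lowest of the 16 values were those of 129. At the promoters of the AP-1 genes themselves, named after these shares were seen, the 6 tested (Fos, Fosb, Fosl2, Jun, Junb and Jund) differed by 0.23 to 0.78 on the log2 scale, and none passed (limma adjusted p = 0.451 to 0.809). The Jun promoter, for example, had scaled values of 15.6 and 20 in 129 and 19.4 and 11.5 in B6.

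**Figure D5:**
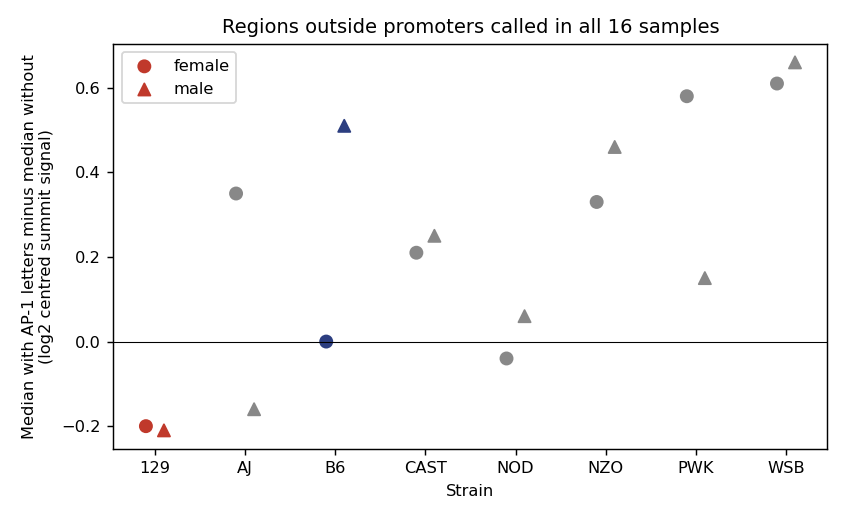
Median centred log2 summit signal of regions with AP-1 letters minus that of regions without, for 28119 regions outside promoters called in all 16 samples, by strain (x axis) and sex (circles female, triangles male). The 129 samples (red) have the 2 lowest values, -0.20 and -0.21, and the B6 samples (blue) lie at 0.00 and 0.51.

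The other 9 motifs were compared by the 2-fold count. There, CCGGAAG of ETS factors was in 7.83% of the regions higher in 129 and 0.815% of those higher in B6, against 3.86% of those tested. TGTTTAC of FOXA was in 10.2% of the regions higher in B6 and 4.03% of those higher in 129, against 6.66%, and CATCTG in 25.1% and 16.5%, against 20.2%. TAATTA was in 8.38% and 2.51% (against 6.18%), GTTAAT in 13.1% and 5.98% (9.14%), TGCTGAC in 7.37% and 4.7% (5.52%) and AGATAA in 11.2% and 8.3% (9.1%) of the regions higher in B6 and in 129. GTTGCCA and CCACNAG leaned the other way, with 3.69% and 5.31% (5.13%), and 8.96% and 18.4% (16.8%). The median GC content of the windows was 52.2% in the regions higher in 129 and 44.8% in those higher in B6. Promoters made up 42.3% and 7.1% of these sets. Of the 2338 tested regions with CCGGAAG, 531 lay outside promoters. There, the median centred log2 signal with these letters minus that without was 0.30 and 0.07 in the 129 female and male. It was 0.06 and -0.14 in the B6 female and male. The part of GC content and of promoters in the motif shares was not tested.

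Genes of beta cell function held no called difference in the test of all 4 samples. In this and the following lists, the region named for a gene is the one with the smallest p among all regions of that gene, often an intron or a weaker start. The list of 20 beta cell hormones and identity factors had 63 tested regions, of which 0 passed limma in either direction. Of these, 6 had an unadjusted p under 0.05, against 8379 of all 60639, and the list's smallest adjusted p was 0.203. Its median difference was 0.25, against 0.08 over all regions, and -0.16 against -0.325 without centring. Without the B6 male it was 0.10, against 0.04. Without the B6 female it was 0.39, against 0.10. The list's 28 promoter regions had a median of 0.35, against 0.33 of all promoter regions. The Ins1 promoter had scaled values of 4.32 and 4.27 in 129 and 3.98 and 3.25 in B6, and the Pdx1 promoter, of the master regulator of beta cells, had 3.34, 3.15, 3.24 and 1.98 in the same order. At both genes the B6 male had the lowest value, and the other samples lay close together. The 4 members with the smallest p were Nkx2-2, Iapp, Foxa2 and Slc30a8, with differences of 1.24 ± 0.40, 1.14 ± 0.37, 1.15 ± 0.39 and 0.88 ± 0.36, none past the threshold. The Iapp region, 2988 bases from the Iapp start, also overlaps an exon of Slco1a5. The 2-fold count gave 4 regions higher in 129 and 0 higher in B6 (6.35% of 63, against 7.73% of all tested regions).

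Among the 117 regions of these beta cell genes, 7 were called in 129 only and 0 in B6 only (5.98% together), against 1.99% and 5.84% (7.82% together) of all merged regions. They included regions at Slc30a8, the zinc transporter of insulin granules (2 regions), G6pc2, Slc2a2, which encodes the glucose transporter GLUT2, Nkx6-1 and Glp1r, the receptor of the incretin GLP-1. The Glp1r region, at its promoter (chr17:30901355-30902428), had 1.68 in the 129 female and 0.771 in the 129 male, and was called in 8 of the 16 samples. The other 6 were weaker, from 0.167 to 0.756.

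The type 2 diabetes genes had shares of one-strain regions near those of all regions. Of their 431 regions, 5 were called in 129 only and 26 in B6 only (7.19% together), against 1.99% and 5.84% (7.82% together) of all merged regions. Cdkal1, whose variants are associated with insulin secretion, had 7 of the 26, all in introns, with values of 0.186 to 0.39 in the B6 female and 0.271 to 1.19 in the B6 male. Pam, Dgkb and Camk1d had 3 each, Tle1, Irs1, Adamts9 and Thada 2 each, and Jazf1 had 1. The 5 called in 129 only were at Slc30a8 (2 regions), Tle1, Jazf1 and Tcf7l2. Of the 171 tested regions, 0 passed limma and 34 had an unadjusted p under 0.05, against 8379 of all 60639. By the 2-fold count, 1 was higher in 129 and 12 were higher in B6 (7.6% together, against 7.73% of all tested). The median difference was -0.10, against 0.08 over all regions. In the 29 promoter regions of the list it was 0.28, against 0.33 of all promoter regions. Without centring, 0 regions higher in 129 and 18 higher in B6 passed, against 179 and 3121 of all 60639. The members with the smallest p were Dgkb, Tle4, Tle1 and Cdkal1, with differences of -1.81 ± 0.47, -1.75 ± 0.45, -1.37 ± 0.39 and -1.26 ± 0.35 (limma adjusted p = 0.128 to 0.155). The Dgkb intron, for example, had 0.366 and 0.896 in 129 and 1.41 and 3.03 in B6.

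Genes of the circadian clock gave the single call among the lists. Nr1d2 encodes the nuclear receptor REV-ERB beta, a repressor in the clock. One of its 8 tested regions, an exon region 8854 bases from the start (chr14:18221226-18230070), had scaled values of 0.829 and 1.1 in 129 and 4 and 4.42 in B6, a mean of 0.967 ± 0.194 against 4.21 ± 0.3 (SD, n = 2 each). It was lower in 129 by -2.12 ± 0.36 on the log2 scale (limma adjusted p = 0.0329), by -2.24 in the females and -1.99 in the males. The Nr1d2 promoter, in contrast, had 20.2 and 28.7 in 129 and 21.3 and 22.9 in B6, a difference of 0.12 ± 0.36 that did not pass (adjusted p = 0.905). AJ, NOD, NZO and WSB had mean centred log2 signals of 1.14 to 1.85, near the B6 value of 1.56, while CAST and PWK had -0.55 and -1.39, on the side of the 129 value of -0.56. Weaker starts of Rora and Hlf differed by 1.44 and 1.10 and their strongest promoter regions by 0.63 and 0.79, and none passed. Arntl, the gene of the activator BMAL1, differed in direction between its starts. Its strongest promoter region (chr7:113206852-113208285) had 9.76 and 6.27 in 129 and 6.14 and 4.54 in B6 (0.56 ± 0.38, adjusted p = 0.521). A weaker start (chr7:113239627-113240091) had 0.537 and 0.917 in 129 and 2.17 and 1.46 in B6, which did not pass (difference -1.32 ± 0.39, adjusted p = 0.172). The Nr1d2 difference did not pass with quantile normalization (adjusted p = 0.0501), with the deposited mean signal (-1.23, adjusted p = 0.108) or without either 129 sample (adjusted p = 0.925 without the female and 0.425 without the male), and it passed under the other 12 settings tried (adjusted p = 0.000713 to 0.0452). Of the 56 tested regions of the list, 8 had an unadjusted p under 0.05, against 8379 of all 60639. The list's median was 0.41, against 0.08 over all regions. This median was 0.21 (against 0.03) within GC bins, 0.23 (against 0.09) without the 129 female, 0.20 (against 0.04) without the B6 male and 0.18 (against 0.05) with the mean signal. Without the B6 female it was 0.59, against 0.10. The list's 28 promoter regions had a median of 0.54, against 0.33 of all promoter regions. Rora, the activator that opposes Nr1d2, had 2 regions called in 129 only and 2 in B6 only, and Per1 had 1 in 129 only. Together these were 3.73% of the 134 regions of the list, against 7.82% of all merged regions.

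Secretory genes had no call in the test of all 4 samples. Channels of stimulus-secretion coupling had 0 of 162 tested regions past limma, 24 at an unadjusted p under 0.05, with 3 and 5 by the 2-fold count in the 129 and B6 directions. Granule processing and exocytosis had 0 of 217, 26 at an unadjusted p under 0.05, with 4 and 5. Over all 60639 tested regions, 8379 had an unadjusted p under 0.05. The 2-fold shares, 4.94% and 4.15%, were below the 7.73% of all tested regions. Without centring, 0 and 7 channel regions and 1 and 9 granule regions passed limma in the 129 and B6 directions. Over all 60639 regions it was 179 and 3121. Called in 129 only and B6 only were 5 and 14 of 364 channel regions (5.22% together) and 10 and 26 of 676 granule regions (5.33%), against 7.82% of all merged regions, in which B6-only regions were also the larger part (5.84%). Ptprn2, a granule membrane phosphatase relative, had 11 of the 26, and Cadps and Rims2, which act in granule priming, had 6 each. Pcsk2, the prohormone convertase, had 4 of the 10. The other granule genes were Ptprn2 (2 regions), Cpe, Scg2, Syt4 and Cadps on the 129 side and Pcsk2, Snap25 and Unc13a on the B6 side. Among channels, Cacnb2 had 5 and Cacna1a 3 of the 14 B6-only regions, and both also had 1 of the 5 in 129 only. Ryr2, Kcnma1, Scn3a and Scn9a gave the rest of the B6-only regions, and Abcc8, Cacna1h and Kcnma1 those of 129. Named members of the channel list were Cacna1c, with 1.12 and 0.688 in 129 and 0.373 and 0.22 in B6 (1.56 ± 0.40, adjusted p = 0.125), and Scn9a, with 1 and 1.54 against 2.22 and 5.42 (-1.47 ± 0.44, adjusted p = 0.172), neither past the threshold. The other named members, Cacna1d, Ryr2, Ptprn2, Rims2, Pcsk2 and Cadps, differed by 1.12, -1.55, 2.01, -1.14, 1.11 and 1.15, with limma adjusted p = 0.082 for Ptprn2 and higher values for the rest. The Ryr2 difference was 0.08 in the females and -3.19 in the males, and the strains overlapped. The Cacna1d region lies at the start of Dcp1a.

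The other lists had 0 calls by limma as well in the test of all 4 samples. In the order below, the 5 lists of this paragraph had medians of 0.27, 0.31, 0.31, 0.35 and 0.19, against 0.08 over all regions. Their promoter regions had medians of 0.40, 0.47, 0.35, 0.57 and 0.18, against 0.33 of all promoter regions. The alpha, delta, PP and epsilon cell genes had 1 of 15 tested regions at an unadjusted p under 0.05, against 8379 of all 60639. Irx2, an alpha cell factor gene, had the smallest p (1.33 ± 0.44, limma adjusted p = 0.209). Irx1 and Ghrl differed by 0.58 and 0.65, and the Ghrl difference was -0.03 without the 129 female. Genes of the unfolded protein response had 9 of 49, and their smallest p was at the promoter of Xbp1, which encodes a main effector of that response (1.34 ± 0.37, adjusted p = 0.148), a difference that was -0.03 with the deposited mean signal. Dnajc3, Atf6 and Herpud1 differed by 1.27, 0.93 and 0.95. Redox genes had 8 of 46, led by the region of Ucp2, a mitochondrial carrier gene (1.93 ± 0.52, adjusted p = 0.141), which also overlaps an exon of Dnajb13, with Gclm at 1.03 and Txn2 at 0.97. Interferon and antigen presentation genes had 5 of 37, and Tap2, Ifngr2 and Irf3 differed by 1.29, -1.20 and 0.95. The Irf3 region lies at the start of Bcl2l12, and the strongest promoter regions of Tap2 and Ifngr2 differed by -0.13 and 0.68. Genes with known alleles between laboratory strains had 2 of 24, where Ren1, Cdh23 and Disc1 differed by 1.00, 0.66 and 0.37, and Disc1 by -0.14 within GC bins. None of these passed. Among the genes with known alleles, Nnt, in which C57BL/6J carries a deletion of exons, had an intron region called in B6 only (0.441 in the female and 0.661 in the male) and another with 0.756 and 0.75 in 129 and 0.441 and 0.22 in B6, which did not pass. Regions called in B6 only also lay at Atf6 (4 regions), Eif2ak3 (2), Edem1, Txnrd2, Ifnar2, Oasl2 and Casp4. Those called in 129 only lay at Atf6, Dnajc3, Ern1 and Txn2. One-strain regions made up 7.69% of 130 unfolded protein response, 3.37% of 89 redox and 4.08% of 49 interferon regions. They were 4.08% of 49 regions of genes with known alleles, against 7.82% of all merged regions.

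Among markers of other cells, the region with the smallest p was an exon of Nr5a2, which encodes a nuclear receptor of acinar cells, with 1.83 and 2.08 in 129 and 5.41 and 9.15 in B6. It did not pass (-1.84 ± 0.38, limma adjusted p = 0.0738). Acinar, duct, endothelial and stromal, and leukocyte markers had 1 of 7, 2 of 19, 4 of 18 and 0 of 16 tested regions at an unadjusted p under 0.05. Over all 60639 tested regions it was 8379. Among the other named markers, Bhlha15, Krt8, Pdgfra, Rgs5, Cx3cr1, Cd79a and Spi1 had differences of 0.15 to 1.19, and Onecut1, Cftr, Tek and Itgb2 of -1.09 to -0.61. Bhlha15 turned to -0.35 and Spi1 to -0.04 within GC bins. The Cd79a region lies at the start of Arhgef1. The acinar list and the endothelial and stromal list had median differences of 0.15 and 0.10, against 0.08 over all regions. Without the B6 female these were -0.03 and 0.13, against 0.10. Cftr, a duct channel gene, had 3 regions called in B6 only, 2 in introns and 1 in an exon. Cela2a, Cdh5, Emcn, Pecam1, Tek and Ptprc had 1 each, while Col3a1 had 1 called in 129 only. One-strain regions made up 8.33% of 36 duct, 3.03% of 33 acinar, 9.62% of 52 endothelial and stromal and 2.44% of 41 leukocyte regions. Over all merged regions it was 7.82%, with 5.84% in B6 only. The Col1a2 promoter, of a fibroblast collagen, had 0.415 and 0.771 in 129 and 1.32 and 2.95 in B6 (-1.77 ± 0.44, adjusted p = 0.118). The part of other cell types in the strain differences was not tested.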

How the data were processed

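ATAC-seq peak lists of 4 islet samples (129 female and male, B6 female and male) were analysed. According to the labels and the study's methods, the authors removed adapters (cutadapt 2.0), mapped paired reads to mm10 (Bowtie2 2.3.4.1), filtered them with SAMtools and Picard 2.9.2, and ran the MOSAiCS peak caller on each sample separately with the false discovery rate set to 0.05. The sources used here state neither an offset of read ends for the transposase nor the handling of reads with several alignments. The deposited signal of a peak is a whole number at its summit, which the authors did not scale to depth. The deposited mean signal served as an alternative, and the −log10 p-value deposited for each peak ranked peaks where the weaker part of each list (below its median) was left out and broke ties elsewhere. Strain lists pooled by the authors were not used. The lists hold no read totals, so depth is unknown from these files and no counting interval is given.

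Peaks on chromosomes 1 to 19 that overlapped by at least 1 base were merged (median width 208 bases, widest 105772 bases), and a region took the highest summit of each sample. Regions called in all 4 samples were tested on log2(signal + 1), centred on each sample's median, with limma 3.58.1 in R 4.3.3 for strain alone, with 2 residual degrees of freedom moderated over all regions. P-values were adjusted by Benjamini-Hochberg over all of them. A fold change on this scale understates that of weak regions. The fit was tested on simulated data. Annotation came from GENCODE vM21 and sequence from GRCm38, read with samtools 1.23.1, and tables were made with Python 3.11.15, pandas 2.3.3 and numpy 2.4.6. The 8 regions with the smallest p in each direction, the 8 with the highest mean signal in each strain's own set, the 4 genes with the smallest p per list and the 5 windows with the highest share of calls were named by rule. Some regions and genes that this rule names are not reported here. Members, lists and motifs were chosen with earlier results of these data known. The GC-bin centring (20 bins), the intensity trend, the 2-fold count and the AP-1 shares under other settings were added after seeing the data.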

Additional observations from a re-analysis of the deposited data

How the results depend on the processing

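Counts of regions past the limma threshold depended on the settings, and the cause was not tested. Among regions called in at least 2 samples, a sample without a peak was given a signal of 0. Regions called in 1 strain only thus entered that fit through the strain with the peak, and its calls repeat the presence calls in part. Higher in 129 and in B6 were 179 and 3121 regions without centring, 33 and 17 with quantile normalization, 236 and 409 with a pseudocount of 10, 62 and 91 among regions above the median signal, 3097 and 8824 among regions called in at least 2 samples, 82 and 174 with the mean signal, 117 and 123 with the spread of all 16 samples, 26 and 26 without the weaker part of each list, 52 and 17 when centred within GC bins, and 252 and 430 with an intensity trend. Leaving out 1 sample at a time gave 0 to 960 and 0 to 1494, where the lone sample was assumed to vary like the other strain. These fits had 1 residual degree of freedom. Moderation added 2.65 without either 129 sample and 128 without either B6 sample, against 12.8 in the main fit. Regions called in 129 only, in B6 only and in all 4 numbered 982, 6075 and 34608 without the weaker part of each list, and 4229, 5117 and 57301 with equal numbers of peaks. They numbered 3105, 12800 and 26411 when peaks had to cover at least 50% of the region, and 4021 to 17147, 11662 to 31825 and 61461 to 70079 without 1 sample. By the 2-fold count, 495 and 7634 were higher in 129 and B6 without centring, 925 and 1567 with the larger pseudocount and 322 and 758 with the mean signal, and the count without 1 sample ranged from 1413 to 5589 and from 1694 to 5180. The AP-1 share of regions higher in B6 was 30.7% among regions called in at least 2 samples and 25.5% to 58.8% without 1 B6 sample.

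With sex as the replicate block, 688 and 1050 of the 60639 regions were higher in 129 and B6, and 691 and 808 with GC bins as well. All 118 regions kept their call under both. With the block, 15 of the 54 regions named for gene lists passed, against 1 without it. Calls in the 129 and B6 directions were then 1 and 2 for channel genes, 1 and 2 for granule genes, 0 and 5 for type 2 diabetes genes, 1 and 1 for clock genes, 2 and 0 for the unfolded protein response, and 1 and 0 each for redox, interferon and alpha, delta, PP and epsilon cell genes. Acinar and endothelial or stromal markers had 0 and 1 each, and the other lists had none. The samples share only their sex, and female minus male in 129 and in B6 had a correlation of 0.314 across regions, with 2 pairs. The 16 named regions kept their direction in every setting that gave a value. They lost the threshold without either 129 sample, 9 of 16 kept it among regions called in at least 2 samples and 14 of 16 with the mean signal. Of the 118 calls, 50 remained with quantile normalization, 64 within GC bins and 94 without the B6 male. Differences that did not pass turned for Bhlha15 to -0.25 without centring, -0.08 with the mean signal and -0.35 within GC bins with or without the block. For Disc1 they turned to -0.03 without centring and -0.14 within GC bins in both fits. They turned for Spi1 to -0.04 within GC bins in both fits, for Ghrl to -0.03 without the 129 female (-0.03 to 1.33 without 1 sample) and for Xbp1 to -0.03 with the mean signal.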
